A study of Mus musculus with 4 samples.

Results

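The mitotic genes of the embryonic mouse heart were followed as a group of 36 genes whose products enter, drive or complete cell division. The group was given as a list of symbols and all 36 were found among the 32285 genes of the expression matrices, on 15 chromosomes. They gave 358003, 365771, 381936 and 339546 counted transcript molecules (UMIs, unique molecular identifiers) in Wt1, Wt2, Ho1 and Ho2. For each cell the UMIs of the 36 genes were summed and expressed per 10000 UMIs of that cell, and a cell was called high at 40 or more per 10000. The question was which heart cell types hold many or few such cells, and whether hearts carrying the Cyp51 mutation differ from wild-type hearts.

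Single cells were captured from dissociated E10.5 (mid-gestation) hearts of C57BL/6J mice in 4 droplet libraries. Wt1 and Wt2 are wild-type in genotype, Ho1 and Ho2 are Cyp51 I383V/I383V, homozygous for a point mutation in lanosterol 14-alpha demethylase, an enzyme of cholesterol synthesis, and all 4 libraries carry the treatment label CRISPR/Cas9. The labels do not say whether libraries came from separate embryos or how many embryos were pooled, so the p-values below measure only the spread between these samples. The labels name no Cre or tissue-specific promoter. A 3′-end count cannot read a single base change, so Cyp51 levels check no label: they were 32.3, 40.7, 46.9 and 43.2 CPM (a scale on which 100 CPM are 1 UMI in 10000) in compact-like cells of Wt1, Wt2, Ho1 and Ho2, the order in which all values by library are given.

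The matrices held 10320, 8212, 7999 and 7058 barcodes with 109893733, 117034633, 127018819 and 107377100 UMIs, and 8908, 7154, 6980 and 6126 cells were used after filters and the removal of 746, 464, 440 and 334 likely doublets. Any pair of libraries shared between 14 and 34 barcodes, at most 0.425% of the smaller library. Wt1 was the shallowest, with a median of 10561 UMIs per used cell against 14215.5, 15658 and 15831.5. One library stood apart from its group. Ho1 held 28877 UMIs of Xist, the RNA of the inactive X chromosome, against 5, 4 and 2 in Wt1, Wt2 and Ho2, and no UMI of Y-linked genes against 8808, 9910 and 9657, so results resting on Ho1 are given with and without it. By these RNAs Ho1 held female cells and Wt1, Wt2 and Ho2 male cells, which the labels do not state. Sex is therefore not balanced between Ho and Wt, and its part in their differences was not tested.

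Entry into mitosis is driven by Cdk1 bound to cyclin A or cyclin B, whose RNAs accumulate as cells approach division and whose proteins are destroyed when the anaphase promoting complex acts. The spindle checkpoint delays that destruction until every kinetochore has caught microtubules, and kinesins, bundling proteins and the RhoA pathway then separate the chromosomes and divide the cell. In the embryonic heart the outer compact layer of the ventricle is known as the proliferating layer, while the trabecular ridges inside it and the pacemaker region of the sinus venosus divide less.

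Promoters of the mitotic genes are known for CCAAT boxes, bound by NF-Y, and for the cell cycle homology region, TTTGAA or TTCGAA, through which the DREAM and MuvB complexes act. RefSeq promoter windows from 250 bases before to 50 bases after the transcription start (build GRCm38.p6) were given for 31 of the 36 genes, the exceptions being Tpx2, Smc4, Aurkb, Ccna2 and Kif20a. The 5 windows below belong to the B-type cyclins, their kinase, the activator of the anaphase promoting complex and a mitotic kinase, the genes that time mitosis and whose levels are followed below. Each is written on the strand of its gene, 5′ to 3′, with the CCAAT box and both forms of the homology region, on either strand, in capitals.
Ccnb1: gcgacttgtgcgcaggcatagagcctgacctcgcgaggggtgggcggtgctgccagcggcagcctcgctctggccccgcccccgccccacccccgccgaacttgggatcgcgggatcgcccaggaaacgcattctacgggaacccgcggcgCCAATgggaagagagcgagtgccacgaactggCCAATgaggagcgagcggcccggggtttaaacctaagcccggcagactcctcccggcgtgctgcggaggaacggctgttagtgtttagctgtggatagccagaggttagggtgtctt
Ccnb2: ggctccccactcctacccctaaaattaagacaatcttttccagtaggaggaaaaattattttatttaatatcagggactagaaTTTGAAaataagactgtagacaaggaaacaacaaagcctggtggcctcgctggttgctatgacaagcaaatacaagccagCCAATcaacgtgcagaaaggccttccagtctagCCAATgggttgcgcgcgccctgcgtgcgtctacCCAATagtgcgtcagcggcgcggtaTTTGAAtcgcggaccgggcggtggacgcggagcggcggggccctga
Cdk1: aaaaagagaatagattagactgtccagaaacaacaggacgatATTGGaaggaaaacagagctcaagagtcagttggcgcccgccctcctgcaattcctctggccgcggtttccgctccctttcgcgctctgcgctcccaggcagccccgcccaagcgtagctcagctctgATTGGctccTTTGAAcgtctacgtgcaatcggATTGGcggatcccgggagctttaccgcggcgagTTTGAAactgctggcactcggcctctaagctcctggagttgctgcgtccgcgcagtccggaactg
Cdc20: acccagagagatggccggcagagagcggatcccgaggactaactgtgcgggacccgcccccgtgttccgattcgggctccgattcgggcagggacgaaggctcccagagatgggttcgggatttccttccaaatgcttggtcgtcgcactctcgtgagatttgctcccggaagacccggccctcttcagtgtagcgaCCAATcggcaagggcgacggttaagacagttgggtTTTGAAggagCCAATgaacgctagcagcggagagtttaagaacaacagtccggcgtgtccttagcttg
Plk1: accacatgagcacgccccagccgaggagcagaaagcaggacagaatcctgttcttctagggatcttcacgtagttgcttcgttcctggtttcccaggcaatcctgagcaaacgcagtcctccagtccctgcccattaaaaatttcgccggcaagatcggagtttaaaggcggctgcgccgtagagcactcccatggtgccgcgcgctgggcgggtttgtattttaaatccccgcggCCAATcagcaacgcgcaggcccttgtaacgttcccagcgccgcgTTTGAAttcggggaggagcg

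The Ccnb1 window (chr13:100786437-100786736, minus strand) held CCAAT at positions -99 and -67, counting the start base as 1, and no TTTGAA or TTCGAA. Ccnb2 (chr9:70421505-70421804, minus strand) held CCAAT at -87, -54 and -21 and TTTGAA at -167 and 5. In Cdk1 (chr10:69352863-69353162, minus strand) CCAAT read on the opposite strand, as ATTGG, at -208, -80 and -48, and TTTGAA lay at -71 and -15. Cdc20 (chr4:118437294-118437593, minus strand) held CCAAT at -53 and -8 around a TTTGAA at -18, and Plk1 (chr7:122159185-122159484, plus strand) held CCAAT at -14 and TTTGAA at 31. Over the 31 genes, CCAAT stood in 24 (77.4%) against 41.1% of the 27025 genes with a window, TTTGAA in 24 (77.4%) against 20.2%, and TTCGAA in 3 (9.68%) against 1.80%. CCAAT and TTTGAA stood together in 20 of 31 (64.5%) against 7.97% of all genes. Nuf2, Nusap1 and Birc5 held none of the 3 in this window. A match of letters is a description of the window and not a shown binding site.

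Cells were grouped without the mitotic, other G2/M and S phase genes, and groups were named from marker genes, so that no member of the group of 36 chose a cell class. Other genes that follow the cell cycle were not removed from that grouping, except in the division of the ventricular cells into compact and trabecular, where a further 1823 genes correlated with the cycle were left out. The 8 classes held 1655 compact-like, 513 trabecular-like, 1241 atrial-like and 1191 sinus venosus-like cardiomyocytes, 4713 endocardial-like, 2047 cushion mesenchyme-like, 3035 Crabp1 mesenchyme-like and 662 epicardial-like cells, and are called by these names below. A further 12232 cells belonged to clusters that got no name, 5355 of them in 7 clusters of low depth, and the rest to smaller named classes. These names were rebuilt from markers and can differ from those of the study.

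Marker levels were read as a check on the names. Nppa, the natriuretic peptide of trabeculae and atria, stood at 10380, 16570, 12950 and 12370 CPM in trabecular cells against 393, 682, 912 and 570 in compact cells. Hey2, a repressor of the compact layer, stood at 32.1, 31.2, 31.7 and 40.8 CPM in compact and at 26.8, 13.7, 13.2 and 19.9 in trabecular cells. The whole list of 6 compact markers, with the myosin light chain Myl2 as its most abundant gene, went the other way and summed to 96.7, 99.6, 94.8 and 100.1 per 10000 in compact and to 127.8, 119.3, 113.5 and 136.6 in trabecular cells. In each of the 7 ventricular sub-clusters at least 4 of the 6 compact markers were raised over non-ventricular cells, so these markers show ventricular cells and do not set the compact class apart from the rest of the ventricle. Its 2 sub-clusters had 0 of 9 trabecular markers raised over other ventricular cells, and none of their leading genes over those cells, among them Bcat1, Psat1 and Ccnd2, is on the compact list. The compact class is therefore ventricular cells poor in trabecular markers, and its identity with the compact layer of the wall is not shown by its markers. The trabecular class joined sub-clusters of 261 and 252 cells, with 6 and 4 of 9 trabecular markers raised, and the smaller had the atrial marker Stard10 among its leading genes. Of 3117 ventricular cells, sub-clusters of 460, 383 and 106 cells got neither name. That of 460 cells had the trabecular markers Cited1 and Gja5 among its leading genes. Trabecular against compact thus compares parts of the ventricular cells. Shox2, the pacemaker factor, reached 395, 410, 331 and 491 CPM in sinus venosus cells, Stard10 reached 410, 414, 338 and 384 in atrial cells, and Cdh5, the endothelial cadherin, 268, 260, 266 and 224 in endocardial cells. Shox2 stood at 32.5, 10.4, 7.39 and 19.8 CPM in atrial cells, but Stard10 at 207.5, 262.8, 197.8 and 155.7 in sinus venosus cells. The sinus venosus cluster had 8 of 8 atrial markers raised besides 7 of 7 of its own, so raised atrial markers alone do not set atrial cells apart from it. Hapln1, a cushion matrix gene, reached 969, 980, 1001 and 1140 CPM in cushion cells. These marker levels are shares of all UMIs of the class. Crabp1, a retinoic acid binding protein, stood at 722, 262, 30.4 and 171 CPM in the Crabp1 class: only 32 of its cells came from Ho1, and these carried 258 CPM of Hapln1 against 4.76, 6.82 and 7.54 in the other libraries, so they go against the name. Of the 3 clusters that make up this class, 2 had histone genes among their leading genes.

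High cells were more frequent in the compact class than in the trabecular and sinus venosus classes. To compare cells of unequal depth, each cell was thinned to 5000 UMIs and shallower cells were left out, and intervals are exact 95% binomial intervals that cover counting error only. In compact cells the share of high cells was 35% (28.7 to 41.7), 36.5% (31.6 to 41.6), 36.1% (32.4 to 39.8) and 43.6% (38.5 to 48.7) of 220, 370, 671 and 381 cells. In trabecular cells it was 17.9% (7.54 to 33.5), 21.7% (14.9 to 29.8), 13.5% (9.31 to 18.7) and 14.9% (9.06 to 22.5) of 39, 129, 222 and 121 cells. In sinus venosus cells it was 15.5% (11.1 to 20.7), 20.6% (15.5 to 26.6), 21.3% (17.03 to 26.2) and 20.9% (17.02 to 25.2) of 233, 218, 328 and 402 cells. The lowest compact library lay above the highest library of either of the other classes. Without thinning the shares were 33.5, 34.3, 34.6 and 42.5% in compact, 17.9, 21.7, 13.9 and 13.9% in trabecular and 15.2, 20.4, 20.2 and 19.4% in sinus venosus cells.

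**Figure D1:**
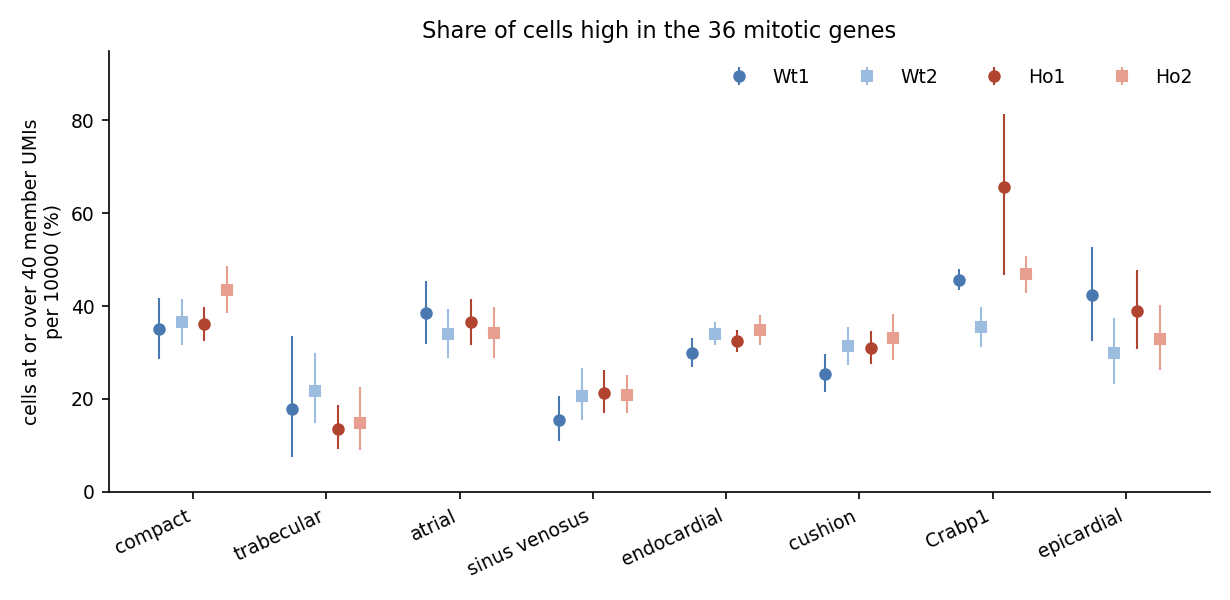
Share of high cells (y axis, percent of cells counted) in each of the 8 cell classes (x axis) for Wt1, Wt2, Ho1 and Ho2, 1 point per library with its exact 95% binomial interval as a bar. Trabecular and sinus venosus cells lie lowest, between 13.5 and 21.7%, and the Crabp1 class is above the compact class in Wt1, Ho1 and Ho2 but not in Wt2 (35.4 against 36.5%), with Ho1 at 65.6% on 32 cells.

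Atrial cells had 38.6% (31.9 to 45.5), 33.9% (28.9 to 39.3), 36.5% (31.7 to 41.5) and 34.2% (28.9 to 39.9). Endocardial cells, the inner lining of the heart, had 29.9% (26.9 to 33.1), 34.1% (31.6 to 36.6), 32.4% (30.1 to 34.8) and 34.8% (31.6 to 38.2). Cushion mesenchyme, the precursor of the valves, had 25.4% (21.4 to 29.7), 31.4% (27.4 to 35.5), 31.03% (27.6 to 34.6) and 33.2% (28.4 to 38.4). The Crabp1 class had 45.7% (43.4 to 48.0), 35.4% (31.1 to 39.9), 65.6% (46.8 to 81.4) and 46.8% (42.9 to 50.8), and epicardial cells, the outer covering, had 42.4% (32.6 to 52.8), 30% (23.2 to 37.5), 39.0% (30.7 to 47.7) and 33.0% (26.2 to 40.3). By mean over 4 libraries the order was Crabp1 48.4% ± 12.6 (SD, n = 4), compact 37.8% ± 3.91, epicardial 36.1% ± 5.64, atrial 35.8% ± 2.17, endocardial 32.8% ± 2.17, cushion 30.3% ± 3.39, sinus venosus 19.6% ± 2.77 and trabecular 17.01% ± 3.64. Neighbours in that order overlapped between libraries everywhere except between cushion and sinus venosus.

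Within each library, 7 pairs of classes were compared by an exact two-sided sign permutation test over 4 libraries, which gives no p under 0.13, or 0.175 adjusted over the 7 pairs. Trabecular cells were lower than compact cells by a mean of 20.8 percentage points (28.7 to 14.8 lower, lower in 4 of 4 libraries, exact p = 0.13), and sinus venosus cells by 18.2 (22.7 to 14.7, 4 of 4, exact p = 0.13). Endocardial cells lay 4.97 points below compact cells in 4 of 4 libraries and cushion cells 2.55 below endocardial cells in 4 of 4, each with an exact p of 0.13. Both differences leave out an unnamed cluster of 1205 cells in which 7 of 8 endocardial markers were raised. Its shares were 21.7, 16.9, 22.01 and 16.8%, below the endocardial class in each library, so both differences depend on which cells were named endocardial. The cushion difference turned to 3.59 points above endocardial without integration of the libraries, and to 0.0157 above at a limit of 80. With a high cell set at 80 per 10000 in place of 40, the endocardial difference turned to 5.27 points above compact and the sinus venosus difference shrank to 0.827 points below. The sinus venosus shares were then 5.58, 8.72, 10.4 and 7.46% against 8.64, 7.84, 8.197 and 10.8% in compact cells, so sinus venosus was the higher in Wt2 and Ho1. The trabecular shares at that limit were 5.13, 3.88, 4.05 and 4.96%, below compact cells in each library but by less than at a limit of 40. The Crabp1 class lay 18.1 points above cushion cells in 4 of 4 libraries, and 12.6 above without Ho1. Atrial against compact (mean 1.98 lower, from 9.34 lower to 3.57 higher, exact p = 0.75) and epicardial against cushion (mean 5.83 higher, from 1.37 lower to 17.03 higher, exact p = 0.5, adjusted 0.583) went in both directions among libraries, and the latter was 0.651 lower without integration.

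The low classes held many cells in which these RNAs were nearly undetected. The level was below 10 per 10000 in 61.5, 56.6, 64.0 and 60.3% of trabecular cells against 20.5, 21.4, 21.8 and 16.5% of compact cells. No UMI of the 36 genes was left after thinning in 12.8 to 22.3% of trabecular and 15.1 to 20.4% of sinus venosus cells, against 1.36 to 3.88% of compact cells. Before thinning, the median depth was 18930, 23780, 20410 and 20880 UMIs in trabecular, 18450, 22110, 21910 and 23640 in compact and 12230, 15480, 14500 and 16540 in sinus venosus cells. Among high cells the mean level per library was 68.3 to 75.4 per 10000 in trabecular, 75.0 to 82.2 in sinus venosus and 63.9 to 66.4 in compact cells, and among the other cells it was 7.22 to 7.83, 6.14 to 7.92 and 16.1 to 16.9. High cells were chosen by this same level, so these means are a description and cannot tell fewer dividing cells from less of these RNAs per cell. Between 17.8 and 19.97% of compact cells and 2.56 and 6.61% of trabecular cells lay near the limit, from 32 to 48 per 10000. In compact cells the limit thus cuts through a range of levels, and whether high cells form a separate group was not tested.

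**Figure D2:**
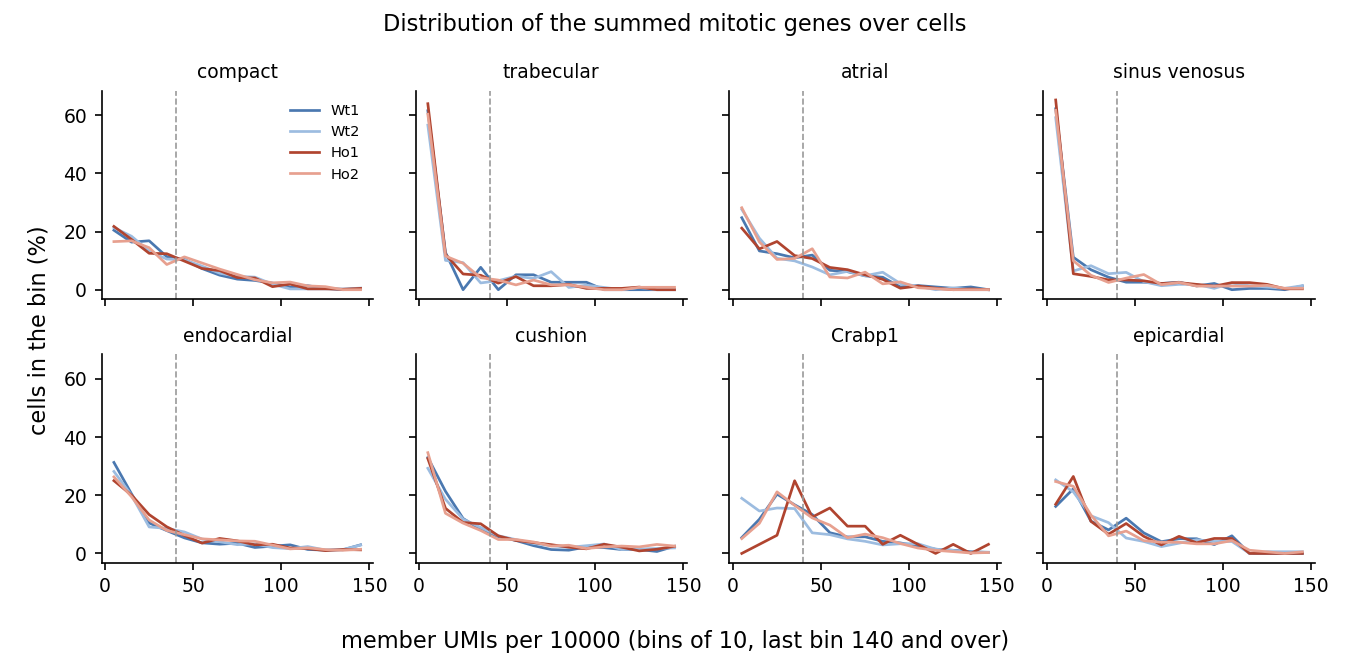
Percent of cells (y axis) by summed level of the 36 mitotic genes per 10000 UMIs after thinning to 5000 UMIs (x axis, bins of 10, the last holding 140 and over), 1 panel for each of the 8 classes and 1 line per library, with the limit of 40 dashed. In trabecular cells 56.6 to 64.0% of cells fall in the lowest bin, against 16.5 to 21.8% of compact cells.

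The 36 genes rose and fell together from cell to cell to unequal degrees. Counts are of 3′ ends and were not scaled by gene length. Ube2c, the ubiquitin-conjugating enzyme of the anaphase promoting complex, gave the most UMIs (15.04% of those of the 36) and followed the summed level of the other 35 most closely, with a mean r of 0.764 across cells (0.758 to 0.774 over the 4 libraries). Birc5 (survivin, of the chromosomal passenger complex) gave 10.9% of UMIs with r = 0.661, Cenpf, a kinetochore protein, r = 0.634, Prc1, which bundles midzone microtubules, r = 0.613 and Cdk1 r = 0.571. These cells share library, depth and capture, and the values are a description. At the other end Ttk, a checkpoint kinase, had r = 0.180 with a UMI in 6.14% of cells and Gtse1, a microtubule-binding protein, r = 0.135 with a UMI in 1.98% of cells. Sparse counts limit r, so a low r does not by itself show a gene apart from the group. Per UMI of the cell, Nusap1, which binds spindle microtubules, was 11.04 times as abundant in high as in other cells and Plk1 9.53 times, while Cenpa, the centromeric histone, and Bub3, a checkpoint protein, were 2.66 and 2.25 times as abundant. Gtse1 and Ttk were 5.15 and 3.355 times as abundant, against 3.351 for Birc5 and 3.38 for Cdk1. For this ratio, high cells were chosen for each gene by the summed level of the other 35, with the limit lowered in proportion. The ratio describes how far a gene rose with the rest of the group and only ranks the members.

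The makeup of the mitotic RNA was read as the share of each role in the UMIs of the 36 genes. Ube2c, Cdc20 and Cdca3 together gave 26.0, 24.9, 25.4 and 24.8% of the UMIs of the 36 genes in compact cells and 23.97, 26.5, 24.2 and 24.6% in trabecular cells, which overlap, but 19.7, 18.7, 18.4 and 19.6% in endocardial and 16.2, 15.04, 16.5 and 17.2% in Crabp1 cells. Cdk1 and the cyclins Ccna2, Ccnb1 and Ccnb2 gave 10.3 to 11.9% in trabecular, 12.0 to 12.8% in compact and 15.9 to 16.4% in endocardial cells. The kinases Plk1, Aurka and Aurkb gave 2.50 to 2.67% in compact and 3.86 to 4.21% in endocardial cells. No test was run on these shares.

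In sums of UMIs per library and class, 36 of 36 mitotic genes were lower in trabecular than in compact cells. edgeR's quasi-likelihood test with Benjamini-Hochberg adjustment over 13373 genes called each of them at an adjusted p under 0.05, against 33.6% of all genes called, 17.2% higher and 16.5% lower. The median log2 fold change of the 36 was -0.99, or 1.99 times lower, against 0.01 over all genes, and it ran from -1.34 for Bub1 to -0.57 for Kif2c. DESeq2 called the same number, 36, and without Ho1 edgeR called 34 with a median of -0.81. In such sums, fewer dividing cells and less of these RNAs per cell cannot be told apart.

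The cyclins, their kinase and the anaphase promoting complex partners fell together from compact to trabecular cells. Ccnb2, a B-type cyclin, was at 129.2, 127.2, 123.8 and 126.9 normalized CPM in compact and 50.8, 65.4, 59.1 and 64.0 in trabecular cells, a log2 fold change of -1.04 ± 0.09 (SE, adjusted p = 1.64e-10). Ccnb1, the other B-type cyclin, was at 81.0, 79.95, 79.2 and 94.9 CPM in compact and 38.9, 56.0, 38.4 and 46.7 in trabecular cells. Cdk1, the kinase that both activate, was at 211.6, 189.2, 203.6 and 193.2 CPM against 80.7, 127.0, 75.9 and 98.4. Neither gene's libraries overlapped between the classes, with log2 fold changes of -0.88 and -1.04, and Ccna2, the cyclin of S phase and mitotic entry, fell by 1.202. Cdc20, which brings substrates to the anaphase promoting complex, was at 52.6, 47.0, 47.6 and 61.8 CPM against 26.9, 29.5, 18.4 and 28.0 (-1.06). Ube2c fell by 0.93 and Cdca3, a factor of mitotic entry, by 1.03.

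The kinases, the passenger complex and the checkpoint genes showed the same difference. Birc5 was at 367.5, 382.6, 424.6 and 374.7 CPM in compact and 183.9, 227.2, 174.9 and 170.1 in trabecular cells (-1.04 ± 0.09, adjusted p = 5.27e-11), the lowest p-value of the 36. Cdca8, known as borealin, which joins Birc5 to the centromere, was at 203.9, 205.3, 190.8 and 208.7 CPM against 124.1, 99.8, 80.5 and 94.1 (-1.09 ± 0.09, adjusted p = 5.32e-11). Plk1, a kinase with roles from mitotic entry to cytokinesis, was at 35.99, 29.2, 34.9 and 37.1 CPM against 19.4, 20.04, 15.1 and 16.1 (-1.004). No library of one class reached into the other for these 3 genes. Aurkb, the kinase of the passenger complex, fell by 0.88 and Aurka, the centrosomal kinase, by 0.74. Among the checkpoint genes Bub3 was at 102.8, 111.0, 107.0 and 100.8 CPM in compact and 58.3, 60.9, 64.7 and 59.8 in trabecular cells (-0.78), Bub1b fell by 1.09 and Ttk by 1.04.

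**Figure D3:**
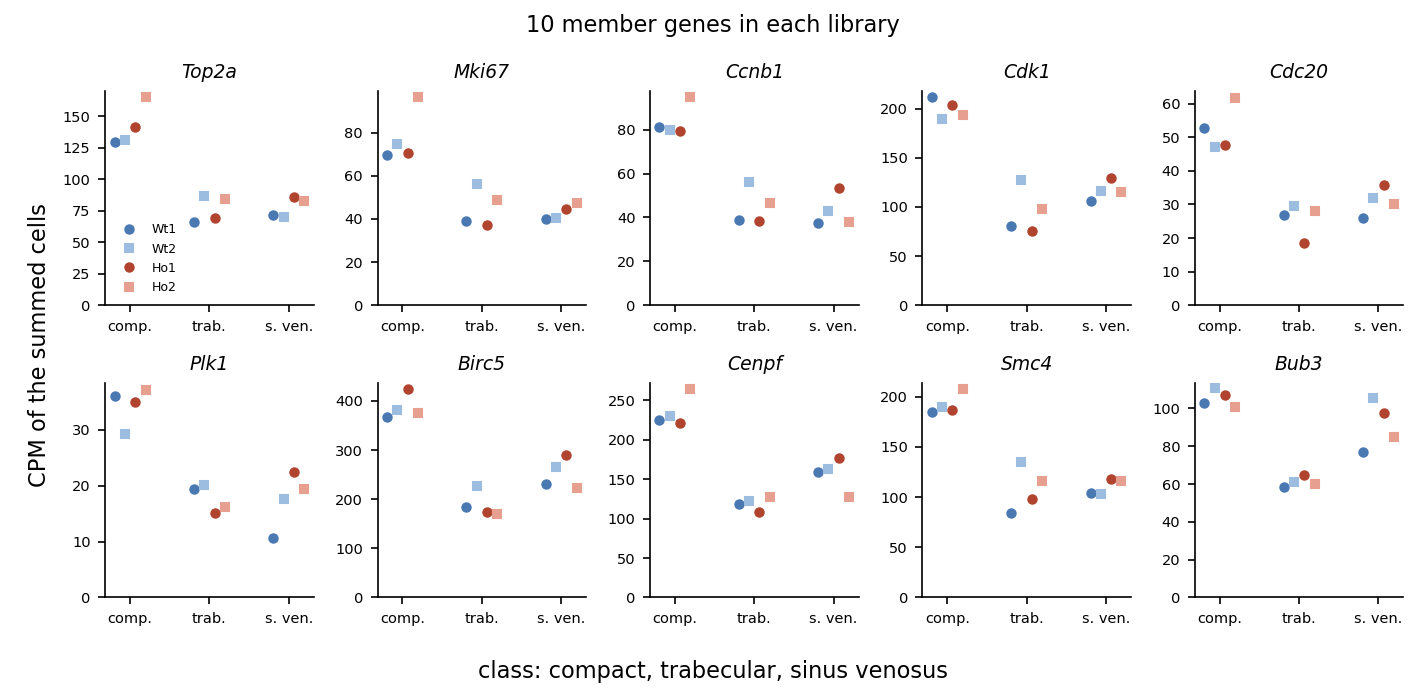
Normalized CPM (y axis, 3′ UMI counts not scaled by gene length) of 10 mitotic genes, 1 panel each, in compact, trabecular and sinus venosus cells (x axis), 1 point per library (Wt1 and Wt2 blue, Ho1 and Ho2 red). Trabecular points lie below compact points in each of the 10 panels.

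Chromosome, spindle and cytokinesis genes completed the pattern. Top2a, the topoisomerase that untangles chromosomes, was at 129.8, 131.6, 141.8 and 165.6 CPM in compact and 65.8, 86.6, 69.5 and 84.8 in trabecular cells (-0.87). Mki67, which coats mitotic chromosomes and is widely used to mark cycling cells, was at 69.8, 74.6, 70.3 and 96.5 CPM against 38.9, 56.3, 37.1 and 48.8 (-0.76). Smc4, a condensin subunit, was at 185.1, 189.8, 186.7 and 207.8 CPM against 83.7, 135.3, 97.7 and 116.2 (-0.79). All 3 were lower in every trabecular library than in any compact library. Cenpf was at 225.5, 230.1, 221.1 and 264.7 CPM against 118.1, 122.5, 108.2 and 126.8 (-0.98), and its fellow kinetochore genes Ndc80, Nuf2, Cenpe and Cenpa fell by 1.05, 0.94, 0.86 and 0.64. Of the kinesins, Kif20a of the midzone fell by 1.17, Kif11, which pushes the poles apart, by 1.07, Kif23 by 0.95, Kif20b by 0.73 and the depolymerase Kif2c by 0.57 (adjusted p = 0.00721). The spindle assembly genes Nusap1, Tpx2, Hmmr and Gtse1 fell by 1.21, 1.11, 1.09 and 1.02, and Prc1, the furrow scaffold Anln and the RhoA activator Ect2 by 0.93, 0.79 and 0.64.

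Other cell cycle genes were also lower in trabecular cells. Of 50 other G2/M genes 47 were lower and 1 higher (median -0.95). Pbk, a mitotic kinase, fell by 1.48 and the kinesin Kif15 by 1.47, while securin, Pttg1, was higher by 0.50. Of 50 S phase genes 46 were lower and none higher (median -0.80), with thymidylate synthase, Tyms, at -1.29. Of 16 transcriptional regulators of the mitotic genes 9 were lower and none higher, led by Mybl2, the MYB protein that joins MuvB to activate these promoters, at -1.92, and the repressor E2f7 at -1.07. S phase genes summed to 15.4, 14.8, 14.6 and 15.3 per 10000 in trabecular cells and to 27.8, 26.3, 25.5 and 27.7 in compact cells.

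Genes induced by dissociation and heat shock, led by Hspa8, summed to 23.7, 26.9, 26.0 and 27.5 per 10000 in trabecular and 32.1, 35.9, 30.02 and 36.2 in compact cells. Of these 12 genes 3 were higher (Hspa1b 1.12 and Egr1 0.82 among them) and 2 lower (Hsp90aa1 -0.61, Hspa8 -0.52), with a median of 0.014, and their part in the difference was not tested. Of the erythroid genes 7 of 7 tested were lower. They were at 0.0134, 0.0683, 0.139 and 0.0917 per 10000 in trabecular and 0.0428, 0.0468, 5.01 and 0.0622 in compact cells. The Ho1 compact value came mostly from 1 cell of 674.

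Mitotic genes were also lower in sinus venosus than in compact cells. Of the 36 genes 35 were lower and none higher, against 51.1% of all genes called, 25.8% higher and 25.3% lower. The median was -0.80 against 0.03 over all genes, DESeq2 also called 35, and without Ho1 35 were called. Nuf2 was the exception (-0.30, adjusted p = 0.0755). Ect2 was at 39.3, 38.2, 40.6 and 45.4 CPM in compact and 14.95, 16.5, 19.7 and 14.6 in sinus venosus cells (-1.32 ± 0.10, adjusted p = 2.30e-12). Kif20a was at 40.6, 41.3, 42.7 and 55.4 against 14.3, 20.8, 24.3 and 21.1 CPM (-1.15 ± 0.10, adjusted p = 2.97e-11), and Ccnb2 at 72.0, 69.2, 71.8 and 70.9 in sinus venosus cells (-0.84 ± 0.08, adjusted p = 1.81e-10). These 3 had the lowest p-values, and none overlapped between the classes.

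Members of every role were lower in sinus venosus than in compact cells. Ube2c, Ccna2, Ccnb1, Plk1 and Top2a fell by 1.05, 0.99, 0.96, 0.92 and 0.87. Mki67, Smc4, Cdk1 and Cdc20 fell by 0.85, 0.80, 0.76 and 0.74, Birc5 by 0.62, Cenpf by 0.60 and Bub3 by 0.21 (adjusted p = 0.0285). Bub3 was at 76.9, 105.7, 97.6 and 84.8 CPM in sinus venosus cells, so its libraries overlapped those of compact cells. Of the other G2/M genes 45 of 50 were lower, led by the phosphatase Cdc25b at -1.63 and the spindle protein Fam83d at -1.32, and Pttg1 was higher by 0.18. Of the S phase genes 45 of 50 were lower, led by Uhrf1, which maintains DNA methylation, at -1.51 and Pold1, a DNA polymerase subunit, at -1.43. Of 16 regulators 10 were lower, among them Mybl2 at -1.76 and E2f1 at -1.27, while the repressor E2f5 and the MuvB subunit Lin37 were higher by 0.42 and 0.25. Dissociation and heat shock genes were at 38.7, 40.2, 37.0 and 43.4 per 10000 in sinus venosus cells, above each compact library. Of the 12, 8 were higher (Junb 1.71, Egr1 1.51) and 4 lower (Hspa1b -1.24, Hsp90aa1 -0.88), and 7 of 7 erythroid genes were lower. Their part in the difference was not tested.

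**Figure D4:**
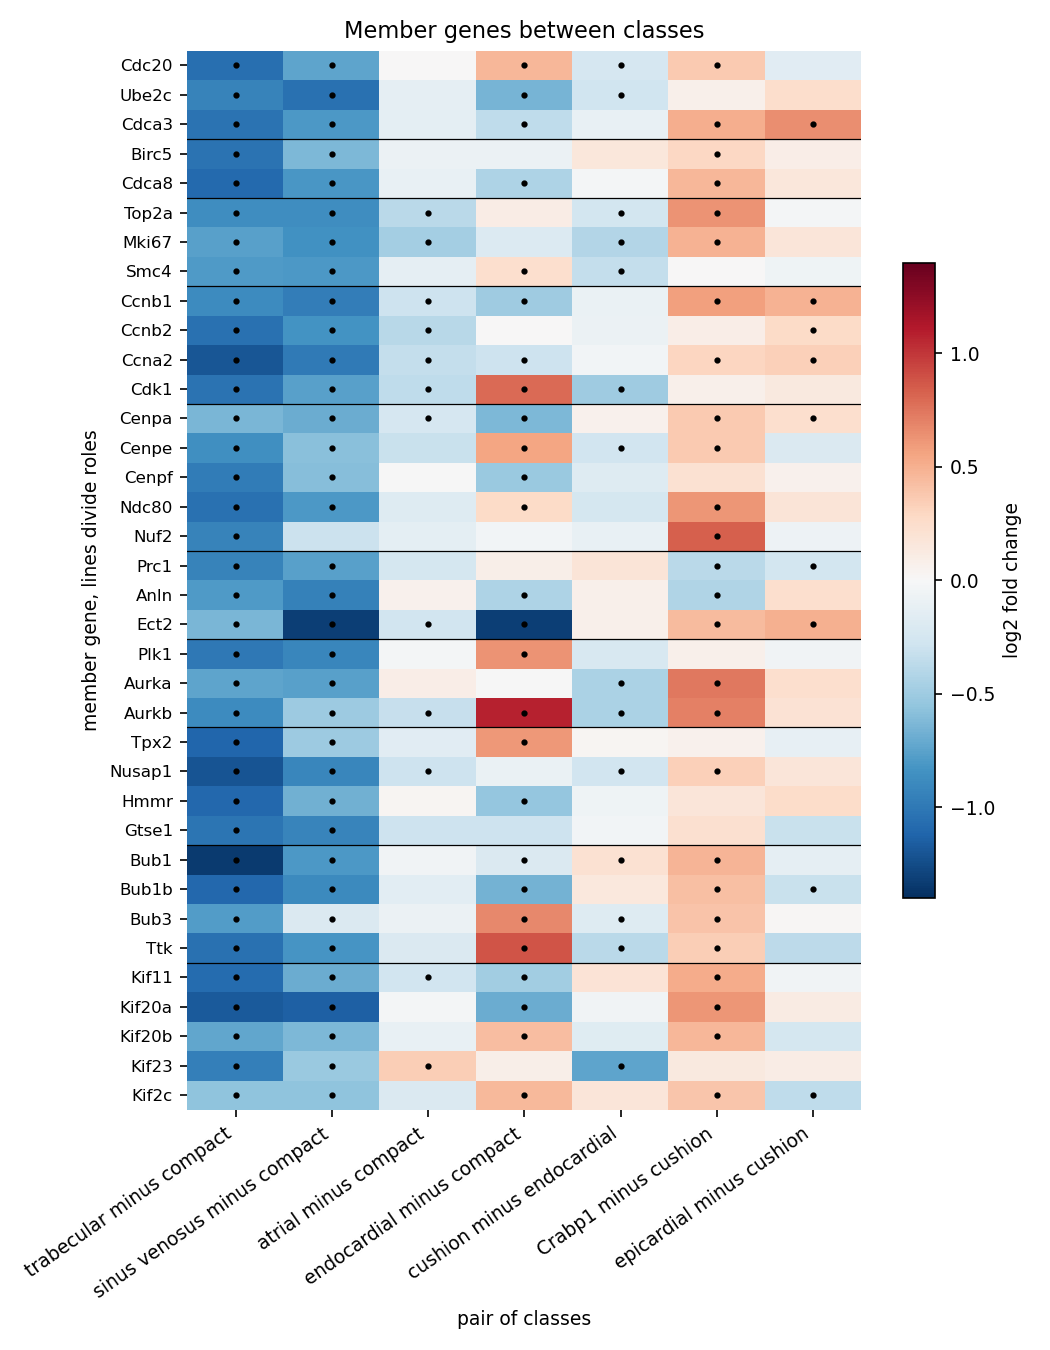
Log2 fold change (color, blue lower and red higher in the first class) of each of the 36 mitotic genes (y axis, lines divide roles) in the 7 comparisons between classes (x axis), with a dot where edgeR's adjusted p is under 0.05. The columns of trabecular and sinus venosus against compact cells are blue throughout, with medians of -0.99 and -0.80, and the other columns hold both colors.

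Atrial cells had 11 of 36 mitotic genes lower and 1 higher than compact cells, against 26.6% of all genes called, 13.2% higher and 13.4% lower, a share of members near that of all genes. The median was -0.15 against -0.00 over all genes. The lower ones included the 4 cyclin and kinase genes. Ccnb2 was at 96.9, 97.0, 102.2 and 91.6 CPM in atrial cells (-0.38 ± 0.07, adjusted p = 0.000165), Mki67 at 64.1, 53.6, 47.9 and 61.2 (-0.47 ± 0.10, adjusted p = 0.000391) and Top2a at 116.1, 101.8, 110.6 and 110.3 (-0.38 ± 0.09, adjusted p = 0.00139), each below its compact libraries. Cdk1, Ccna2 and Ccnb1 fell by 0.36, 0.34 and 0.29, and Kif23 was higher by 0.34 (adjusted p = 0.0396). The count rested partly on Ho2 and Wt2, with 3 called without Ho2 and 7 without Wt2, and 21 were called without integration. With cell cycle genes kept in clustering the direction turned, with a median of 0.0503, 3 called and a share of high cells 5.98 points above that of compact cells. Of the S phase genes 31 of 50 were lower in atrial cells and none higher (median -0.36, 23 called without Ho2), led by Rrm2, the ribonucleotide reductase subunit, at -0.89 and Dut at -0.66. Of the other G2/M genes 11 of 50 were lower (Pbk -0.65, Fam83d -0.60) and none higher, and of the regulators 5 were lower (Mybl2 -1.21, E2f1 -0.66) and E2f5 was higher by 0.44. Of the dissociation and heat shock genes 7 of 12 were higher (Egr1 0.91, Junb 0.87) and Hsp90aa1 was lower (-0.41), and 7 of 7 erythroid genes were lower, against compact cells whose erythroid level in Ho1 came mostly from 1 cell. Their part was not tested.

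Of the 36 mitotic genes 12 were higher and 14 lower in endocardial than in compact cells, against 71.8% of all genes called, 37.0% higher and 34.8% lower, a share of members near that of all genes, so that the count is not a result about the mitotic genes. The median was -0.06, and the values of single genes follow as a description. Ect2 was at 16.1, 16.6, 16.3 and 16.4 CPM in endocardial cells (-1.32 ± 0.08, adjusted p = 1.34e-15), below each compact library. Aurkb was at 52.7, 55.3, 48.9 and 56.9 CPM against 28.4, 23.97, 23.5 and 27.3 in compact cells (1.07 ± 0.10, adjusted p = 3.07e-11), and Bub3 at 169.8, 185.3, 166.2 and 154.6 (0.68 ± 0.07, adjusted p = 5.06e-10). Both were above every compact library.

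The genes on each side had mixed roles. Higher with Aurkb and Bub3 were Cdk1 (0.79), at 332.5, 351.7, 355.5 and 336.2 CPM, Ttk (0.88), Plk1 (0.63), Tpx2 (0.61), Cenpe (0.55), Cdc20 (0.47), Kif2c (0.45), Kif20b (0.44), Ndc80 (0.27) and Smc4 (0.24). Lower with Ect2 were Kif20a (-0.69), Bub1b (-0.67), Ube2c (-0.65), Cenpa (-0.63), Hmmr (-0.54), Cenpf (-0.52), Ccnb1 (-0.50), Kif11 (-0.48), Anln (-0.43), Cdca8 (-0.43), Cdca3 (-0.36), Ccna2 (-0.29) and Bub1 (-0.20). Of the S phase genes 35 of 50 were higher and 5 lower (median 0.37), with Tyms at 1.72 and the histone mRNA binding protein Slbp at 1.29 above, and Ung at -0.75 and Rfc4 at -0.58 below. Of the other G2/M genes 12 were higher (Pbk 0.95, Incenp 0.60) and 15 lower (Psrc1 -0.99, Pttg1 -0.93). Of the regulators 6 were higher (E2f5 2.10, E2f2 1.52) and 4 lower (E2f8 -1.55, Rbl2 -0.80). Of the dissociation and heat shock genes 4 were higher (Hspa1b 0.74, Ier2 0.715) and 4 lower (Fosb -1.96, Fos -1.79). Of 7 erythroid genes 2 were higher (Hbb-y 2.10, Hbb-bt 1.64) and 3 lower (Hba-x -1.02, Hba-a2 -0.90 among them), and the part of both lists was not tested.

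Cushion mesenchyme, which forms from endocardium, had 13 of 36 mitotic genes lower and 1 higher than endocardial cells, against 48.2% of all genes called, 21.6% higher and 26.7% lower. The 14 called (38.9% of members) were a smaller share than that of all genes, so the count is not a result about the mitotic genes, and the median was -0.10 against -0.03 over all genes. Of the erythroid genes 6 of 7 tested were lower in cushion cells (median -2.47, with Hbb-y at -3.75 and Hbb-bt at -2.98), and the list, led by Hbb-y, summed to 0.0757, 0.167, 0.313 and 0.263 per 10000 in cushion and 1.10, 0.904, 3.15 and 1.29 in endocardial cells, where 45, 61, 62 and 43 cells carried over 5 per 10000. Of 12 dissociation and heat shock genes 6 were lower (Fosb -1.80, Hspa1a -1.37) and none higher, although the list summed to 39.3, 41.1, 35.3 and 38.4 per 10000 in cushion and 35.6, 37.9, 31.7 and 34.7 in endocardial cells. Their part in the counts of members was not tested. Kif23, the kinesin of the central spindle, was at 17.7, 24.9, 22.8 and 27.9 CPM in cushion and 36.5, 37.5, 39.6 and 42.9 in endocardial cells (-0.74 ± 0.12, adjusted p = 5.88e-06). Cdk1 was at 232.9, 236.5, 240.0 and 267.4 CPM (-0.50 ± 0.09, adjusted p = 2.82e-05) and Aurkb at 36.5, 37.5, 36.1 and 48.5 (-0.44 ± 0.09, adjusted p = 0.000225), each below its endocardial libraries. Aurka (-0.44), Mki67 (-0.41), Ttk (-0.37), Smc4 (-0.33), Ube2c, Nusap1 and Cenpe (-0.27 each), Top2a (-0.25), Cdc20 (-0.23) and Bub3 (-0.18) were also lower, and Bub1 was higher by 0.21 (adjusted p = 0.0300). Without Ho1 8 of the 36 were called, and without integration of the libraries the median was 0.10 and the share of high cells 3.59 points above that of endocardial cells. Of the S phase genes 21 were lower (Ccne1 -1.33, Tyms -0.75) and Mcm4 was higher by 0.38, of the other G2/M genes 14 were lower (Fam83d -0.80, Ccnf -0.67) and 3 higher (Psrc1 0.47, Ncaph 0.33 among them), and of the regulators 5 were lower (E2f2 -1.11, E2f4 -0.51).

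The Crabp1 class had 24 of 36 mitotic genes higher and 2 lower than cushion cells, against 53.8% of all genes called, 29.1% higher and 24.7% lower. The median was 0.37 against 0.05 over all genes. This result depended on how the libraries were joined: without integration of the libraries 9 were called, 4 higher and 5 lower, with a median of -0.09. Top2a was at 203.2, 160.1, 253.4 and 203.2 CPM against 115.5, 119.0, 129.4 and 148.8 in cushion cells (0.63 ± 0.09, adjusted p = 4.20e-07). Nuf2, which anchors microtubules to the kinetochore, was at 28.5, 27.2, 40.5 and 27.9 against 13.1, 15.7, 18.1 and 17.7 CPM (0.84 ± 0.12, adjusted p = 5.27e-07), and Aurkb at 66.6, 55.1, 61.6 and 74.3 (0.71 ± 0.10, adjusted p = 5.57e-07). All 3 had every Crabp1 library above every cushion library, with Ho1 resting on its 32 cells. Aurka, Ndc80, Kif20a, Ccnb1, Kif11, Cdca3, Mki67 and Bub1 were higher by 0.74, 0.62, 0.61, 0.57, 0.52, 0.51, 0.49 and 0.48, and the midzone and furrow genes Anln and Prc1 fell by 0.42 and 0.37. Without Ho1 25 were called. Of the S phase genes 38 were higher (Ccne1 1.53, Rrm2 1.16) and Mcm4 fell by 0.22 (median 0.51), of the other G2/M genes 28 were higher (Ncapd2 1.02, Spc24 0.95) and 3 lower (Racgap1 -0.48, Cdkn3 -0.33 among them), and of the regulators 9 were higher (E2f4 0.76, E2f7 0.64) and Rbl2 fell by 1.18. Of 12 dissociation and heat shock genes 5 were lower (Atf3 -2.97, Hspa1a -0.95) and Hsp90aa1 was higher by 0.37. They summed to 41.8, 41.9, 33.98 and 39.0 per 10000 in the Crabp1 class, and their part was not tested.

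Epicardial cells had 6 of 36 mitotic genes higher and 3 lower than cushion cells. Over all genes 47.2% were called, 23.9% higher and 23.3% lower. The 9 called were a smaller share of members than that of all genes, so the count is not a result about the mitotic genes. The median was 0.09 (-0.17 and 17 called without integration), and the values of single genes follow as a description. Cdca3 was at 113.2, 91.6, 106.0 and 93.2 CPM in epicardial and 55.3, 65.5, 63.6 and 70.3 in cushion cells (0.65 ± 0.11, adjusted p = 5.90e-06). Ect2 was at 25.8, 25.8, 26.7 and 20.2 CPM against 14.7, 15.5, 19.8 and 18.7 (0.50 ± 0.11, adjusted p = 0.000516), and Ccnb1 at 74.4, 73.6, 71.8 and 89.9 against 46.9, 57.2, 52.8 and 64.5 (0.49 ± 0.12, adjusted p = 0.000829). No epicardial library of the 3 genes fell into the cushion range. Ccna2, Ccnb2 and Cenpa were higher by 0.34, 0.27 and 0.24, and Kif2c, Bub1b and Prc1 fell by 0.36, 0.31 and 0.26. Of the S phase genes 16 were higher (Ung 0.86, Ccne1 0.73) and 7 lower (Gins3 -0.79, Mcm4 -0.50), of the other G2/M genes 8 higher (Psrc1 0.90, Cdkn3 0.73) and 7 lower (Ncaph -0.71, Espl1 -0.52), and of the regulators 3 higher (Tfdp1 0.73, E2f4 0.46) and 4 lower (E2f2 -1.45, Lin9 -0.47). Of 12 dissociation and heat shock genes 8 were higher (Fosb 2.22, Egr1 1.78) and 3 lower (Junb -1.09, Atf3 -0.72). They summed to 37.75, 44.2, 35.6 and 46.0 per 10000 in epicardial cells, and their part was not tested.

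Homozygous Cyp51 mutant and wild-type hearts were then compared within each class. The mean share of high cells was 35.7% ± 1.05 (SD, n = 2) in Wt and 39.8% ± 5.31 in Ho compact cells, 19.8% ± 2.66 and 14.2% ± 0.963 in trabecular cells, and 18.0% ± 3.67 and 21.1% ± 0.315 in sinus venosus cells. The groups were compared by exact permutation (two-sided), which with 2 libraries a group gives no p under 0.33, and after adjustment over 8 classes no p was below 0.889. Both Ho libraries lay below both Wt libraries in trabecular cells (5.63 points lower, 4.95 lower without Ho1, 0.712 higher without integration) and above them in sinus venosus cells (3.07 points, 2.85 without Ho1, 0.476 without Wt1, -1.69 at a limit of 20 per 10000) and the Crabp1 class (15.7 points, 6.28 without Ho1). The libraries filled the clusters of the Crabp1 class unequally. Its cluster led by Hoxb4 and Foxf1, with histone genes among its leading genes, held 238, 78, 11 and 174 of 1875, 480, 32 and 648 cells. In the other classes the groups overlapped, with Ho minus Wt at 4.07 points in compact, 3.76 in cushion, 1.62 in endocardial, -0.243 in epicardial and -0.899 in atrial cells. Single libraries moved these values: without Ho1 the compact value was 7.83 and without Ho2 0.322, and the cushion value was 0.768 without Wt1 and 6.75 without Wt2. Leaving out 1 library at a time gave -0.455 to 3.70 points in endocardial, -6.46 to 5.97 in epicardial and -3.22 to 1.42 in atrial cells.

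**Figure D5:**
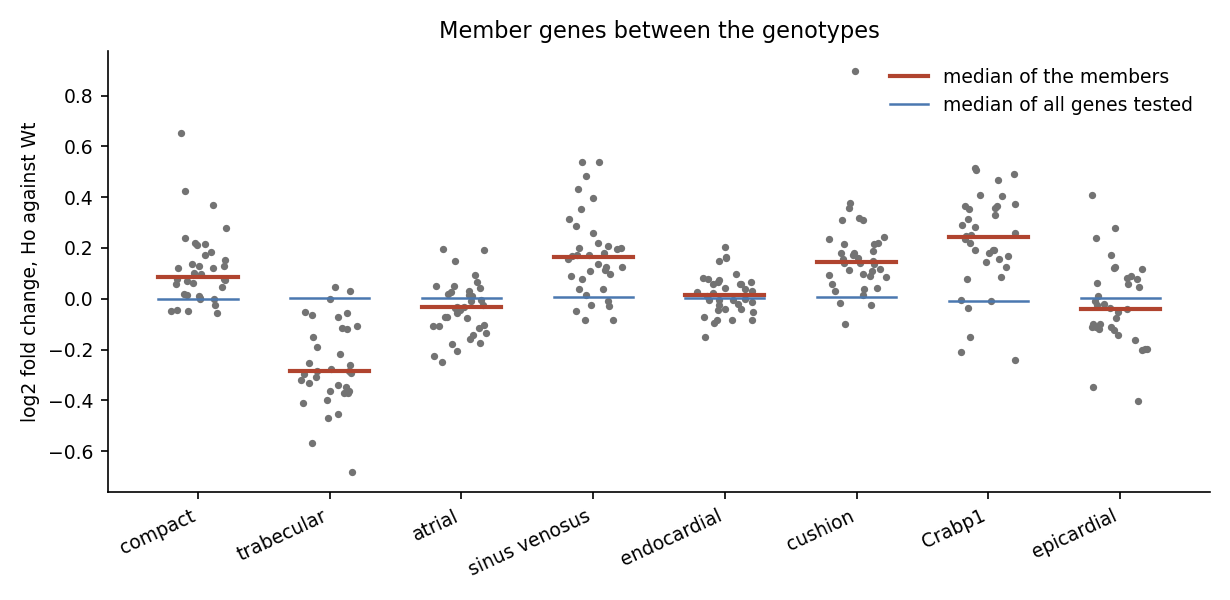
Log2 fold change of Ho against Wt (y axis) for each mitotic gene tested in the 8 cell classes (x axis), 1 point per gene, with a red bar at the median of the mitotic genes and a blue bar at that of all genes tested. No gene passes an adjusted p of 0.05, and the red bars run from -0.28 in trabecular to 0.24 in Crabp1 cells.

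No mitotic gene differed between Ho and Wt at an adjusted p under 0.05 in any of the 8 classes, by edgeR or by DESeq2. The share of all genes called by edgeR was 0.199% in compact, 0.0102% in trabecular, 0.0871% in atrial, 0.0228% in endocardial, 0.0866% in epicardial and 0.0% in each of sinus venosus, cushion and Crabp1 cells. At an unadjusted p under 0.05 edgeR had 3 of 36 members in compact, 5 of 35 in trabecular, 0 in atrial, 3 in sinus venosus, 0 in endocardial, 8 in cushion, 0 in Crabp1 and 1 in epicardial cells, against 5.69, 4.92, 3.78, 4.78, 5.98, 6.42, 2.56 and 5.23% of all genes. DESeq2 had 1 in compact, 1 in sinus venosus, 4 in cushion and none in the other classes. At the same unadjusted threshold edgeR had 4 of 4 erythroid genes in cushion cells (median 1.84) and 5 of 7 in endocardial cells (median 2.84). Of 12 dissociation and heat shock genes it had 5 in cushion, 4 in trabecular, 4 in endocardial, 3 in sinus venosus, 2 in compact and 7 in epicardial cells, and the part of these lists was not tested. The median log2 fold change of the members was 0.09 in compact, -0.28 in trabecular, -0.03 in atrial, 0.16 in sinus venosus, 0.02 in endocardial, 0.15 in cushion, 0.24 in Crabp1 and -0.04 in epicardial cells. Without integration the trabecular median was 0.0709 and the Crabp1 median -0.0497, and at resolution 1.2 the trabecular median was 0.12. The sign of the median also turned under at least 1 alternative in atrial, sinus venosus, endocardial and epicardial cells. The log2 fold change was above 0 for 33 of 36 members in cushion, 30 in sinus venosus and in Crabp1 and 29 in compact cells. It was above 0 for 20 in endocardial, 14 in epicardial and 13 in atrial cells, and for 3 of 35 in trabecular cells, where Gtse1 was too low to test. Of all genes it was above 0 for 6015 of 11713 in cushion, 5669 of 11057 in sinus venosus, 5874 of 12073 in Crabp1 and 5756 of 11562 in compact cells. In endocardial, epicardial, atrial and trabecular cells it was 6741 of 13156, 5286 of 10392, 5808 of 11485 and 4932 of 9813.

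Among the members of lowest p-value, Gtse1 was at 3.16, 3.07, 5.79 and 5.81 CPM in cushion cells (0.90, adjusted p = 0.487) and Tpx2, the activator of Aurka, at 79.7, 98.3, 114.6 and 107.3 (0.32). In compact cells Kif11 was at 32.4, 36.8, 41.0 and 50.6 CPM (0.37, adjusted p = 0.658) and Nuf2 at 12.5, 16.6, 19.6 and 21.3 (0.42, adjusted p = 0.674). In both classes the Ho libraries of these genes lay above the Wt libraries, without passing the test. With 1 library left out, the log2 fold change ran from 0.19 to 0.47 for Tpx2, 0.21 to 0.51 for Kif11 and 0.28 to 0.69 for Nuf2. In trabecular cells Hmmr, which binds spindle microtubules, was at 38.9, 56.3, 30.9 and 39.4 CPM (-0.57) and Kif23 at 28.4, 24.2, 13.6 and 19.1 (-0.68), and only the Kif23 groups did not overlap. These values ran from -0.73 to -0.22 for Hmmr and -0.92 to -0.41 for Kif23 with 1 library left out. Without integration Kif23 was at 0.11. Without Ho1, which leaves 1 Ho library, the median of the members was 0.16 in compact and -0.09 in trabecular cells. The median in sinus venosus cells was then -0.00 and in the Crabp1 class 0.07. In the main fits none of the other G2/M, S phase, regulator or dissociation and heat shock genes was called in any class. The count of dissociation and heat shock genes called moved under 7 alternatives in endocardial, 6 in cushion and 6 in epicardial cells. It moved under 3 in each of trabecular, sinus venosus and Crabp1 cells and under 2 in compact cells. The erythroid genes Hba-x (6.18) and Hbb-y (5.57), the 2 tested in compact cells, were called higher in Ho there, where the Ho1 level came mostly from 1 cell.

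A test of the difference between the genotype effects in trabecular and compact cells called 0 of 36 members by edgeR or by DESeq2, against 0.0721% of 11096 genes by edgeR. At an unadjusted p under 0.05 edgeR had 20 of 36 against 5.34% of all genes, and DESeq2 had 2. The difference was below 0 for 35 of 36 members and 6073 of 11096 genes, that is, toward lower levels in mutant trabecular cells relative to compact cells. The median was -0.39 against -0.03 over all genes. Ube2c was at 934.9, 881.7, 946.9 and 945.7 CPM in compact and 414.1, 617.7, 428.8 and 463.9 in trabecular cells (-0.37 ± 0.09, adjusted p = 0.0592), and Birc5 followed (-0.42 ± 0.11, adjusted p = 0.0867). Wt2 held the highest trabecular value of both genes, and without it the Ube2c difference was 0.05 and the median of the members -0.15. With finer clusters (resolution 1.2 in place of 0.8) the median was 0.08 and 0 members were called, while 6 were called at resolution 0.4 (median -1.26) and 6 with cell cycle genes kept in clustering (median -0.62). Calls over all genes in this comparison moved under 9 alternatives and held under 6, so 0.0721% need not be the background of these counts. Of 3 erythroid genes tested Hba-x (-5.56) and Hbb-y (-4.86) were called lower, again with the Ho1 compact level mostly from 1 cell.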

How the data were processed

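The deposited files were gene by barcode matrices of raw UMI counts, 1 per library, which the authors made with Cell Ranger 6.1.1 on mm10 from 10x Chromium 3′ libraries, and the submitters' processing notes also name Seurat 4.1.0. From these counts, barcodes with at most 20% mitochondrial UMIs, 500 to 50000 UMIs and 500 to 6000 genes were kept, and the cells with the highest Scrublet scores were removed as doublets, at 0.8% per 1000 cells. Libraries were normalized with SCTransform (0.4.2) and joined by canonical correlation in Seurat (5.3.0) on 3000 genes without cell cycle lists, with 30 components. Cells were clustered by leiden (0.10.2, resolution 0.8, 32 clusters) and named by at least 3 markers raised 2-fold and by their 10 leading genes. Ventricular cells were divided again: trabecular sub-clusters had trabecular markers raised over other ventricular cells, and compact ones had compact markers raised over non-ventricular cells only and no trabecular marker among their leading genes.

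UMI counts were summed per library and class and tested with edgeR (4.0.16) quasi-likelihood fits (TMM, filterByExpr, Benjamini-Hochberg at 0.05) within R 4.3.3, with library as a block between classes and no block between genotypes. The methods of the study tested cells as observations, which was not followed here because cells of 1 library are not replicates. CPM values of the members are TMM-normalized over the 8 classes. The fits were tested on simulated data: with 200 changed genes, edgeR found 79% of those changed 2-fold and 51% of those changed 1.5-fold in the comparison of genotypes in compact cells, and 88% and 66% in that of trabecular with compact cells. DESeq2 found 63% and 25% in the former and 85% and 61% in the latter. The simulated spread came from the fit between classes with library as a block. Differences between whole libraries were thus left out, so the values for the genotypes can be too high, and smaller classes were not simulated for them. DESeq2 (1.42.0), RLE scaling, no filter, other limits, depths and clusterings, and leaving out each library were tried as alternatives. The mitotic genes and the other lists were chosen with earlier results of these data known. Every member was described by role, with values in each library for 10 chosen genes and for the 3 members of lowest p-value in each contrast with called members, and from other lists the 2 genes called with the largest change in each direction, except 1 gene that is not reported here and the erythroid genes against compact cells in the trabecular, sinus venosus and atrial comparisons, which are given as counts because 1 cell gave most of their compact level in Ho1. Depth ranged from 107377100 to 127018819 UMIs per library. Base changes in Cyp51 were not analysed here.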

Additional observations from a re-analysis of the deposited data

Results flagged for a closer look

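The Ho minus Wt difference in the share of high cells went opposite ways in pairs of classes, with each Ho library on one side of both Wt libraries. It was -5.63 percentage points in trabecular cells against 15.7 in the Crabp1 class, and -5.63 against 3.07 in sinus venosus cells. These differences between classes were not tested, and their signs depended on the processing: the trabecular value was 0.712 without integration of the libraries and 0.00428 at a limit of 80 per 10000, and the sinus venosus value -1.69 at a limit of 20. The Crabp1 value falls to 6.28 without Ho1, whose 32 cells go against the name of the class, and the trabecular value rests on 39 cells in Wt1.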

How the results depend on the processing

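The lower mitotic levels of trabecular and sinus venosus cells against compact cells kept the sign of their mean under each alternative run, with 29 to 36 and 28 to 36 members called, medians of -1.94 to -0.48 and -0.96 to -0.72, and shares of high cells 35.03 to 4.35 and 33.1 to 0.827 percentage points lower. The last value is that at a limit of 80 per 10000, where sinus venosus cells were higher than compact cells in Wt2 and Ho1. Sinus venosus cells were not named at resolution 0.4, which therefore gave no value. Other comparisons depended on how cells were grouped, and the causes were not tested. Counts of members called under the alternatives stand without the share of all genes called in the same fit. That share also moved under some alternatives, so a changed count is not by itself a result about the mitotic genes.

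Without integration of the libraries, the members' medians were -0.0886 for Crabp1 against cushion, 0.10 for cushion against endocardial and -0.17 for epicardial against cushion, and for Ho minus Wt -0.0497 in Crabp1, 0.0387 in atrial and 0.0709 in trabecular cells. Members called were 9 for Crabp1 against cushion, 21 for atrial against compact and 17 for epicardial against cushion. The shares of high cells differed by 3.59 points for cushion against endocardial and -0.651 for epicardial against cushion, and for Ho minus Wt by 1.66 in atrial and 0.712 in trabecular cells. Birc5, Mki67 and Top2a were at -0.12, -0.14 and -0.12 in Crabp1 against cushion, Top2a at 0.0435 in cushion against endocardial, Kif23 at 0.11 in trabecular Ho minus Wt and Ube2c at 0.20 in the difference of genotype effects. With doublets kept as well (chosen after seeing the data), the medians were -0.0880 for Crabp1 against cushion, 0.0895 for cushion against endocardial, -0.17 for epicardial against cushion, and for Ho minus Wt -0.0609 in Crabp1, 0.0144 in atrial and -0.0776 in sinus venosus cells. Members called were then 10 for Crabp1 against cushion, 29 for atrial against compact and 17 for epicardial against cushion, and shares differed by 3.40 for cushion against endocardial, -0.274 for epicardial against cushion, and for Ho minus Wt by 1.03 in atrial and -0.0179 in sinus venosus cells. Birc5, Mki67 and Top2a were at -0.13, -0.15 and -0.12 in Crabp1 against cushion and Top2a at 0.0406 in cushion against endocardial.

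With cell cycle genes kept in clustering, medians were 0.0503 for atrial against compact and 0.0664 and -0.0121 for Ho minus Wt in atrial and endocardial cells, 3 members were called for atrial against compact and 6 in the difference of genotype effects, shares differed by 5.98 for atrial against compact and 1.98 for atrial Ho minus Wt, and Cdkn3 was at 0.0723 in Crabp1 against cushion. At resolution 0.4, 2 members were called for Ho minus Wt in trabecular cells, 23 for atrial against compact and 6 in the difference of genotype effects, and the endocardial Ho minus Wt median was -0.0052. At resolution 1.2 the medians were 0.12 for trabecular Ho minus Wt and 0.0769 for the difference of genotype effects. A limit of 20 per 10000 gave Ho minus Wt shares of 1.80 in atrial and -1.69 in sinus venosus cells. A limit of 80 gave -0.678 in endocardial and 0.00428 in trabecular cells, and 0.0157 for cushion against endocardial, 5.27 for endocardial against compact and -0.139 for epicardial against cushion. Unthinned cells gave 0.381 for epicardial and cells thinned to 2000 UMIs 0.592 for atrial Ho minus Wt.

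Leaving out 1 library at a time gave 0 to 2 members called for Ho minus Wt in compact cells, 8 to 14 for cushion against endocardial, 3 to 10 for atrial against compact and 0 to 1 for the difference of genotype effects. Shares ran from 0.322 to 7.83 in compact, 0.768 to 6.75 in cushion, 0.476 to 5.67 in sinus venosus, 6.28 to 25.1 in Crabp1, -7.51 to -3.75 in trabecular, -3.22 to 1.42 in atrial, -6.46 to 5.97 in epicardial and -0.455 to 3.70 in endocardial cells for Ho minus Wt, and from -3.83 to 0.478 for atrial against compact. Medians for Ho minus Wt ran from -0.000726 to 0.29 in sinus venosus, -0.16 to 0.0299 in atrial and -0.14 to 0.0627 in epicardial cells, and Ube2c from -0.58 to 0.0512 in the difference of genotype effects. Same-numbered libraries did not deviate together (r from -0.144 to 0.0543 over classes), and the number was not used as a pairing in the main fits. The labels do not say whether same-numbered libraries were handled together, and this correlation cannot exclude it. With the replicate block 0 members were called for Ho minus Wt in the 8 classes, while calls over all genes moved, for example from 10 to 42 in atrial and from 3 to 75 in endocardial cells. With the numbers crossed (chosen after seeing the data), calls over all genes were 141 in endocardial and 117 in Crabp1 cells.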

Other observations

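Several smaller classes and unnamed clusters also differed in their share of cells high for the 36 mitotic genes. Cells resembling the atrioventricular canal had 14.3, 21.9, 13.9 and 22.01% high cells in Wt1, Wt2, Ho1 and Ho2, close to the range of sinus venosus cells. An unnamed cluster of 794 cells led by Mybpc1 and Il17b had 11.1, 6.22, 3.09 and 9%, each below the lowest trabecular library at 13.5%. A cluster led by Nts and Stmn2, unnamed although 7 of 8 endocardial markers were raised in it, had 21.7, 16.9, 22.01 and 16.8%. Macrophage-like cells had 29.4, 29.5, 36.8 and 36.4%, on 11 to 57 cells counted per library. Vascular endothelial-like cells had 47.1, 53.8, 75.0 and 32.4%, with only 4 cells in Ho1, and epithelial-like cells had 26.8, 7.75 and 24.9% in Wt1, Wt2 and Ho2 with no cell of Ho1 deep enough to count.

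Cells over the upper limits on UMIs or genes, 5, 39, 26 and 26 in the 4 libraries, carried the 36 genes at 29.6, 40.0, 33.3 and 44.8 per 10000 against 36.8, 34.7, 33.7 and 34.5 in the cells used. Removed doublets carried them at 37.0, 33.5, 33.0 and 32.3 per 10000.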
